A study of Arabidopsis thaliana with 2 samples.

Results

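Tubulins are the building blocks of microtubules. An alpha-tubulin and a beta-tubulin protein join into a dimer, both bind GTP, and the dimers stack head to tail into hollow filaments; the GTP on beta-tubulin is hydrolysed after assembly, which lets a filament switch between growth and shrinkage. In plants the filaments under the plasma membrane guide the cellulose synthase complexes that lay down wall fibrils, so they set the direction in which a cell can expand, and in dividing cells they form the preprophase band, the spindle and the phragmoplast. Arabidopsis thaliana encodes each subunit in a small gene family whose members differ in the organs where they are active.

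The genes described here are the beta-tubulin genes TUB1 to TUB9 and the alpha-tubulin gene TUA1, 10 genes by name. Of these, 6 had a probe set annotated to them alone, namely TUB1, TUB5, TUB6, TUB7, TUB9 and TUA1, out of 13356 genes that could be named on the array. TUB2, TUB3, TUB4 and TUB8 are not analysed here. Each of the 6 genes was read by 1 probe set, and none of these carried the suffix _s_at or _x_at that marks probes shared between transcripts. The family was selected on its axr4-2 over wild-type ratios in these same data, so the ratios are given as a description and nothing was tested with them.

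The arrays compared whole plants of the mutant line axr4-2, in the Col0 background, with whole Col0 plants. Both were kept at 22 °C in constant light (24 h daily) and labelled as growth stage 1.02, with a further age-like code in the source names that the labels do not explain. AXR4 acts in the endoplasmic reticulum, and without it AUX1, a carrier that takes auxin into cells, does not reach the cell surface; axr4 mutants resist auxin. The allele was not checked on these arrays, because AXR4 itself is not analysed here. There was 1 array per genotype, so no value below has a replicate error, and genotype cannot be told apart from any other difference between these 2 lots of plants. In whole plants, a change in the share of cells that use a gene and a change in its RNA per cell cannot be told apart either.

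The deposited values are linear intensities, and both arrays had a mean of 100.0 after trimming 2% of the values at each end. A gene was counted as measured when the higher of its 2 values reached the median of that array (39.5 in axr4-2 and 42.7 in wild type), which all 6 tubulin genes and 6381 genes in total did. The log2 ratios of the 6381 genes had a median of -0.04 and an SD of 0.41. A rough measure of part of the technical error comes from 30 genes with a further measured probe set. The ratios of the probe sets of one gene differed as if a single probe set had an SD of 0.41. Both probe sets were read on the same 2 arrays, so any error that they share is left out. The tubulin intensities ran from 89.0 to 394.0, well above the brightest bacterial control that should give no signal (18.1 in axr4-2 and 27.1 in wild type), and no tubulin value touched the lower limit set for dim probe sets. Brightness depends on the probes as well as on the RNA, so a gene is compared only with itself on the other array.

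All 5 beta-tubulin genes had higher intensities in axr4-2 than in wild type, by 9.89% to 57.5%, while TUA1 was slightly lower. Of the beta-tubulin genes, TUB1, TUB9 and TUB7 had log2 ratios of 0.48 to 0.66, and TUB5 and TUB6 lay closer to 0. The gap between TUB1 and TUB6 was 0.24, less than the single probe set SD of 0.41. No member reached a 2-fold difference in either direction, where 0.94% of all measured genes were 2-fold or more higher and 1.47% 2-fold or more lower. That balance turned with scaling, from 60 higher and 94 lower genes to 88 and 59 with each array divided by its median. Above 0 lay 5 of the 6 genes, beside 45.7% of all measured genes, and above the single probe set SD of 0.41 lay 3 of the 6, beside 11% of all measured genes. These counts come from the ratios on which the family was chosen.

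TUB7 read 204.1 in wild type and 321.4 in axr4-2, which is 57.5% higher (log2 ratio 0.66). It had the highest ratio of the 6 genes, and 3.81% of all measured genes had a higher one. Within its array the probe set stood at percentile 90.7 in axr4-2 and 85.4 in wild type, so its rank, which does not depend on a scaling factor between the arrays, was higher in the mutant as well.

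TUB9, whose transcript is known from pollen, read 262.7 in wild type and 394.0 in axr4-2, which is 50.0% higher (log2 ratio 0.58). A higher ratio was found in 5.01% of the measured genes. Its percentile was 92.5 in axr4-2 and 88.9 in wild type. TUB9 and TUB7 differed from each other by 0.07 in log2 ratio, less than the SD of a single probe set.

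TUB1, a gene known for its expression in roots and for repression by light, read 89.0 in wild type and 124.3 in axr4-2, which is 39.7% higher (log2 ratio 0.48). Of the measured genes 7.91% had a higher ratio. TUB1 had the largest gain in rank of the 6 genes, from percentile 69.1 in wild type to 77.1 in axr4-2.

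TUB6, a gene whose transcript falls in the cold, read 229.0 in wild type and 271.5 in axr4-2, which is 18.6% higher (log2 ratio 0.25). TUB5 read 240.7 in wild type and 264.5 in axr4-2, which is 9.89% higher (log2 ratio 0.14). Both ratios were smaller than the SD of a single probe set, and 21.3% and 30.9% of the measured genes, respectively, had higher ones. The rank of TUB6 differed by 2.00 percentile points between the arrays and that of TUB5 by 1.02.

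TUA1, an alpha-tubulin gene known for preferential expression in pollen, was the only member with a lower value in the mutant. Its intensity was 99.6 in wild type and 90.8 in axr4-2 (log2 ratio -0.13), and 39.9% of the measured genes had a lower ratio. Its percentile was 70.3 in axr4-2 and 71.9 in wild type. The ratio was smaller in size than the SD of a single probe set.

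**Figure D1:**
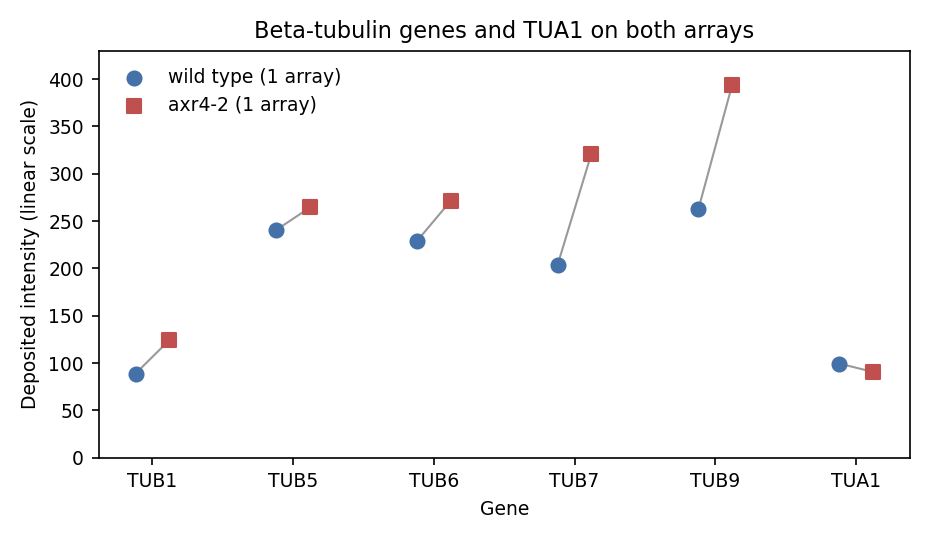
Deposited intensity (vertical axis, linear scale from 0) of the 6 tubulin genes (horizontal axis) on the wild-type array (blue circles) and the axr4-2 array (red squares), 1 array each, with a grey line joining the values of a gene. The line climbs for all 5 beta-tubulin genes, as from 262.7 to 394.0 for TUB9 and from 204.1 to 321.4 for TUB7, and drops slightly for TUA1 (99.6 to 90.8).

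The median log2 ratio was 0.36 over the 6 genes and 0.48 over the 5 beta-tubulin genes, beside -0.04 over all measured genes. The SD across the 6 genes was 0.30, and across the 5 beta-tubulin genes 0.22, both below the 0.41 of a single probe set. The error of a difference between 2 probe sets' ratios is then 0.58. Of the 15 pairs that the 6 genes form, 3 differed by more than this, and the widest gap, between TUB7 and TUA1, was 0.79. Within the beta-tubulin genes the gap from TUB7 down to TUB5 was 0.52 and did not exceed it, and the gap from TUB1 down to TUB6 was 0.24. The split into 3 genes with larger and 2 with smaller ratios thus does not exceed this error, which was taken from measured genes of any brightness. Among measured genes as bright as the tubulin genes, all ratios together had an SD of 0.35, so 0.41 may overstate the error here. Whether the split exceeds the error at this brightness was not tested.

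The position of the tubulin genes was also read against genes of similar brightness, since dim probe sets scatter more. Between the lowest and the highest mean intensity of the 6 genes lay 2401 measured genes. Their log2 ratios had a median of -0.0038 and an SD of 0.35, and 49.5% were above 0. The ratios of TUB7, TUB9 and TUB1 exceeded this SD as well, and those of TUB6, TUB5 and TUA1 did not.

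**Figure D2:**
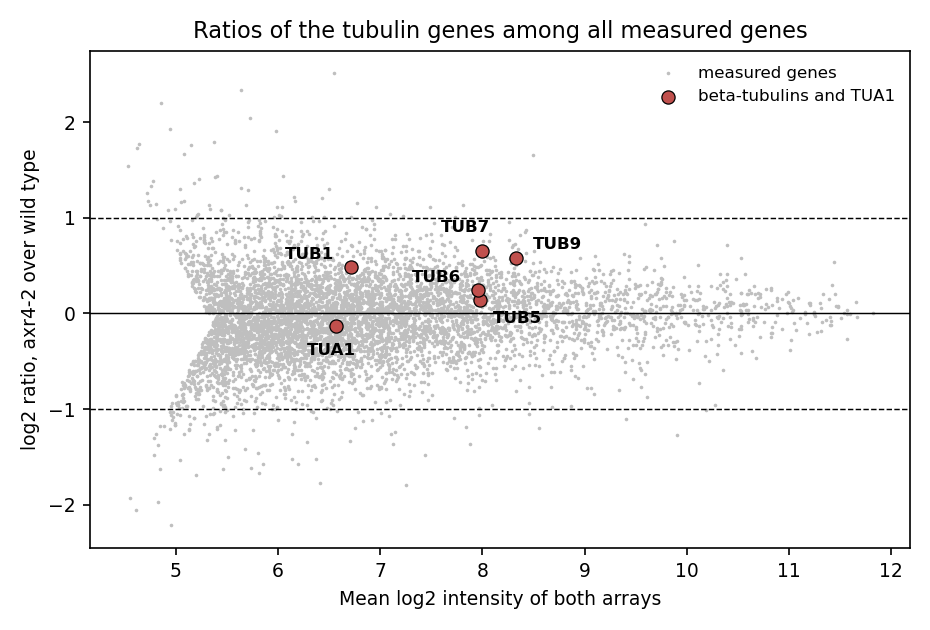
Log2 ratio of axr4-2 over wild type (vertical axis) against the mean log2 intensity of both arrays (horizontal axis) for the 6381 measured genes (grey) and the 6 tubulin genes (red, named). Dashed lines mark 2-fold differences and the solid line equal values; TUB7, TUB9 and TUB1 lie toward the upper edge of the cloud but below the 2-fold line, and TUA1 lies just under 0.

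The remaining tubulin genes that could be looked up were TUA2 to TUA6 and the gamma-tubulin genes TUBG1 and TUBG2, of which TUA6 alone had a probe set of its own. TUA6, an alpha-tubulin whose fusion to a fluorescent protein is a common microtubule reporter, read 468.6 in wild type and 670.4 in axr4-2 (log2 ratio 0.52). Its ratio was close to that of TUB1, and the 2 alpha-tubulin genes lay on opposite sides of 0, 0.65 apart. With TUA6 included, 6 of 7 tubulin genes were above 0 and their median was 0.48. A further probe set was annotated to several tubulin genes at once and was not used.

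Genes that act on tubulin or microtubules lay on both sides of 0. Across the lists for tubulin folding, microtubule nucleation, microtubule-associated proteins and kinesins, 11 genes were measured. Of these, 5 lay above 0 and 6 below, near the 45.7% of all measured genes that lay above 0. Their median was -0.003, with a range from -0.62 to 0.53. SP1L5, POR and AT3G23090, all above 0, reached the array median in axr4-2 alone. None of the 11 was 2-fold apart.

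Tubulin folding cofactors hand the newly made subunits over for dimer assembly. PFI, which encodes cofactor E, read 55.4 in wild type and 41.7 in axr4-2 (log2 ratio -0.41). POR, which encodes cofactor C, read 34.7 in wild type and 41.8 in axr4-2 (log2 ratio 0.27). These values lay near the array medians, and the 2 genes lay on opposite sides of 0.

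Among 7 measured genes for microtubule-associated proteins, 3 were above 0 and 4 below, beside 45.7% of all measured genes above 0. Of the 3, SP1L5 and AT3G23090 reached the array median in axr4-2 alone. SPR1, a plus-end protein without which organs twist, gave 527.6 in wild type and 526.5 in axr4-2, the middle value of this list. Its relatives of the SPIRAL1-like family were spread to both sides. SP1L5, with 31.8 in wild type and 46.0 in axr4-2, had a log2 ratio of 0.53, and SP1L2 had 0.38. SP1L3 had -0.41 and SP1L4 -0.62. ATMAP65-6, of the family that bundles microtubules, read 138.6 in wild type and 100.0 in axr4-2 (log2 ratio -0.47). AT3G23090, which encodes the WAVE-DAMPENED2-like protein WDL3, lay at 0.09.

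TON1B, needed for the preprophase band, was the measured gene of the nucleation and array-organisation list, with 60.6 in wild type and 48.6 in axr4-2 (log2 ratio -0.32). KINESIN-13A, a motor protein gene that affects trichome branching, read 118.6 in wild type and 136.9 in axr4-2 (log2 ratio 0.21). KINESIN-12B, a phragmoplast motor gene, lay below the lower limit on both arrays and has no usable ratio. No gene of the cellulose synthesis list had a probe set named for it.

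**Figure D3:**
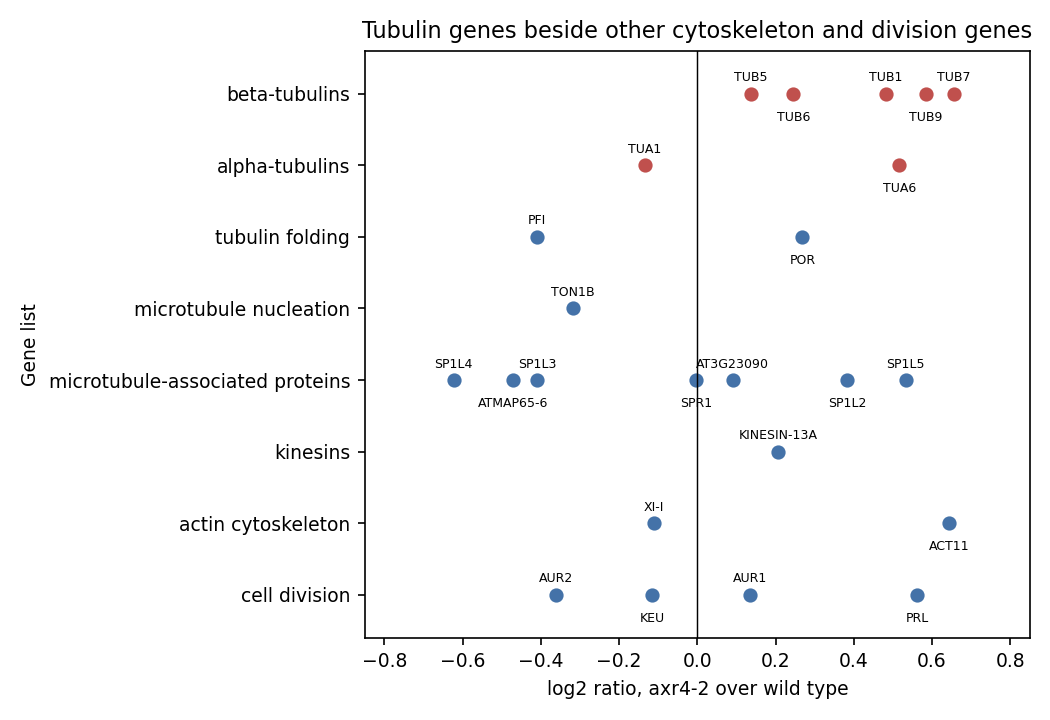
Log2 ratio of axr4-2 over wild type (horizontal axis) for each measured gene of 8 gene groups (vertical axis), tubulins in red and other groups in blue, 1 point per gene. All beta-tubulin genes lie to the right of 0, from TUB5 (0.14) to TUB7 (0.66), while the microtubule-associated proteins spread from SP1L4 (-0.62) to SP1L5 (0.53).

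The size of the tubulin ratios depended on what was taken as unchanged between the arrays. The 18 spike-in probe sets, which read bacterial and phage RNA of known amount, gave log2 ratios averaging 0.09 (SD 0.18). The 7 newer control probe sets for plant actin, GAPDH and ubiquitin averaged 0.48, with a range from -0.01 to 1.03. The 9 older ones averaged 0.28. Among the newer ones, the sets for the 3′ end of actin, GAPDH and ubiquitin gave 0.42, 0.50 and -0.01. The sets for the 5′ end gave 1.03, 0.47 and 0.31, and the middle actin set 0.64. The mean of 0.48 thus mixes different parts of the transcripts. The ratios of TUB1, TUB7 and TUB9 lay at or above that mean of 0.48, those of TUB5 and TUB6 between 0 and the mean, and that of TUA1 below the whole range of the newer set. Relative to the spike-in RNA the median of the 6 genes was 0.27 with 5 above 0, and 35.5% of all measured genes had ratios above 0.09. Relative to the 7 plant control probe sets, a setting added after the data were seen, the median was -0.11 with 3 above 0 (TUB7, TUB9 and TUB1). This centring lowered all measured genes: TUB1 then stood at 0.0035, and 7.91% of them had a higher ratio than TUB1. Such a shift is the same for every gene, so the distance of each tubulin gene from the median of all measured genes stays as it is: 0.69 for TUB7, 0.62 for TUB9, 0.52 for TUB1, 0.28 for TUB6, 0.17 for TUB5 and -0.10 for TUA1.

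Control probe sets for RNA quality also differed between the arrays, but not all in one direction. The signal ratio of 3′ over 5′ control probe sets, which grows when RNA is degraded or copied incompletely, was 3.23 in wild type against 2.12 in axr4-2 for the newer actin set, but 4.08 in wild type against 7.78 in axr4-2 for the older one. Over all 6 control pairs it was the higher one in wild type for 4. The pairs read actin, GAPDH and ubiquitin, each by a newer and an older set, so they are not independent. For the newer GAPDH set the values were nearly equal, 1.03 in wild type and 1.05 in axr4-2. The part of RNA quality in the tubulin ratios, and in the mean of the newer plant control probe sets, was not tested. Tissue markers were nearly equal: the shoot genes RCA, PRK and LHCB4.1 had log2 ratios of 0.08, 0.11 and 0.12, and PYK10, a beta-glucosidase abundant in roots, read 2967 in wild type and 2982 in axr4-2 (0.01). Of 10 genes listed for pollen, 1 had a probe set, AT5G10130, which read 37.6 in wild type and 50.5 in axr4-2 (0.43); whether this gene is specific to pollen was not checked, so it gives no measure of pollen RNA.

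**Figure D4:**
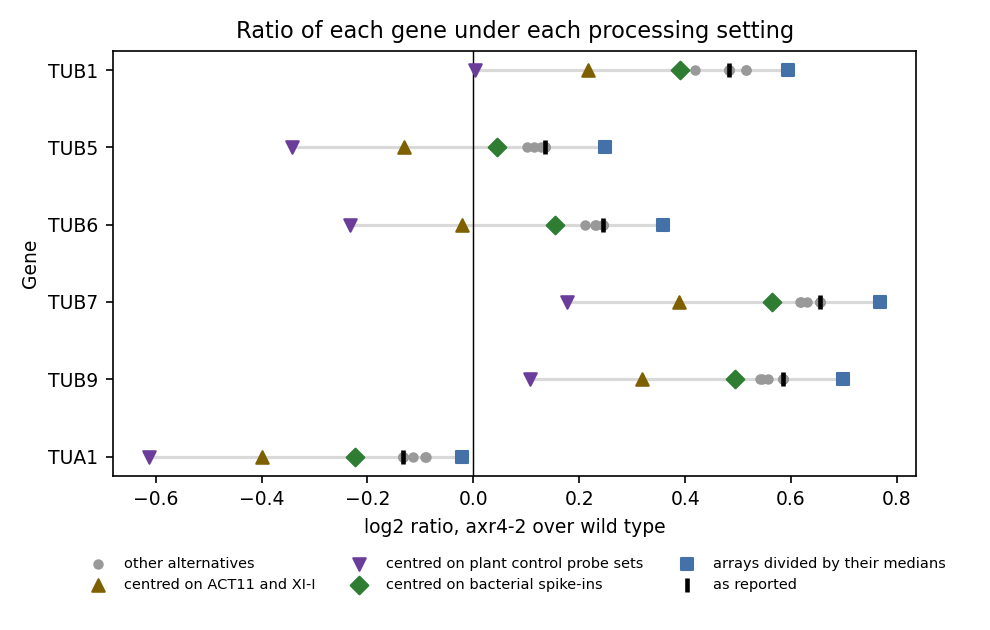
Log2 ratio of axr4-2 over wild type (horizontal axis) of each tubulin gene (vertical axis) as reported (black tick) and under 11 alternative settings; coloured symbols mark the alternatives that shift all genes by a constant and grey circles the others. TUB7 and TUB9 stay to the right of 0 throughout, with lowest values of 0.18 and 0.11, TUB5 and TUB6 cross to the left under 2 settings, and TUA1 stays to the left throughout.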

How the data were processed

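The authors deposited 1 linear intensity for each of 22810 probe sets of the ATH1 array, made from biotin-labelled cRNA, per the labels' protocols; the sources used here name no software, background method or genome build. Scan background averaged 70.79 in axr4-2 and 80.02 in wild type, per the labels.

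Names came from the platform annotation, updated through the RefSeq gene table of TAIR10.1; 13513 named 1 gene and 503 several, which were not used. Values below the 25th percentile of their array were raised to it, the brightest probe set stood for a gene, and ratios were taken as log2 of axr4-2 over wild type. Of gene lists, every measured gene was named up to 6, otherwise the 3 highest and 3 lowest; SPR1 was added after its values were seen. The tubulin genes and lists were chosen with earlier results of these data known. From the folding list 2 genes were removed, because the RefSeq table gives their symbols to other enzymes, and 1 (POR) was added. Calculations were tested on simulated data with changes beyond 2-fold and little noise, so recovery of changes as small as the tubulin ratios was not tested. The number of arrays, 1 per group, limits the precision of every value. Alternatives covered scaling, lower limit, filter and probe set choice. Tools were matplotlib 3.10.9, statsmodels 0.14.6, pandas 2.3.3 and numpy 2.4.6 under Python 3.11.15.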

Additional observations from a re-analysis of the deposited data

How the results depend on the processing

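Each tubulin ratio was recomputed under 11 settings, 66 values in all. Of these, 58 kept their sign and moved by no more than the SD of a single probe set (0.41). Part of this was fixed in advance. The other lower limits, the mean of all probe sets and leaving out shared ones could not change any tubulin ratio. Centring on the spike-in RNA shifted each by 0.09, less than that SD. Relative to the plant actin, GAPDH and ubiquitin control probe sets, added after seeing the data, log2 ratios were 0.0035 for TUB1, -0.34 for TUB5, -0.23 for TUB6, 0.18 for TUB7, 0.11 for TUB9 and -0.61 for TUA1, with a median of -0.11 and 3 genes above 0. Relative to the 2 measured actin cytoskeleton genes, TUB5 was -0.13, TUB6 -0.021 and the median 0.10, with 3 genes above 0. That centre of 0.27 is the midpoint of ACT11 (0.64) and XI-I (-0.11), and neither gene lay near it. The plant control and actin shifts follow from the centres, 0.48 and 0.27, and lower all measured genes alike. As reported, 7.91% of all measured genes had a higher ratio than TUB1 (0.48), and 19.5% had one above that of POR (0.27). The median stayed above 0 in 14 of 15 settings. Several could not change it, as no tubulin gene was below the main filter or had a further or shared probe set. The 75th percentile filter dropped TUA1, the only gene below 0 as reported, and gave 0.48 over 5 genes. The 15 also include the beta-tubulin genes alone and TUA6 added, which change the members and not the processing and gave 0.48 each. The 60 genes that were 2-fold or more higher became 99 with no filter on dim genes and 16 when filtered at the 75th percentile; the 94 lower ones became 226 and 31. Scaling turned the balance of higher and lower genes, to 88 and 59 with arrays divided by their medians, 87 and 60 with the lowess trend removed, and 76 and 70 with quantile normalization. The median of microtubule-associated protein genes (-0.003) became 0.11 with arrays divided by their medians and -0.41 with the 75th percentile filter, through fewer genes; cell division genes kept under 3 members there and gave no value. Beyond these constructions the cause was not tested. No paired analysis was possible because each genotype has 1 array, and leaving out an array was impossible for the same reason.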

Other observations

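Actin genes gave another view of the cytoskeleton. ACT11, an actin gene of young and reproductive tissues, read 117.7 in wild type and 184.0 in axr4-2, and its log2 ratio of 0.64 was close to that of TUB7. XI-I, a myosin gene whose product moves nuclei, read 88.5 in wild type and 81.9 in axr4-2 (-0.11). The other 4 named genes of the actin list, ACT12, XIC, XIE and XIH, were too dim to count as measured.

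Cell division genes were mixed, with 2 of 4 measured genes above 0, beside 45.7% of all measured genes, and a median of 0.01. PRL, which encodes the replication licensing subunit MCM7, read 71.8 in wild type and 106.0 in axr4-2 (0.56). The Aurora kinase genes AUR1 and AUR2, which act at the spindle and cell plate, had log2 ratios of 0.13 and -0.36, and KEU, needed for vesicle fusion at the cell plate, had -0.12.

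The genes next to the 6 tubulin genes in the RefSeq table were read as well, though few were measured. Of 12 adjacent protein-coding genes 5 were measured, none of them next to TUB5. Among the 5, 4 lay below 0 and 1 above, too few to set against the 45.7% of all measured genes above 0. Their log2 ratios ran from -0.96 for AT1G75770, next to TUB1, to 0.09 for CP5, next to TUA1. TUB9 (0.58) lies beside AT4G20880, which read 65.7 in wild type and 45.7 in axr4-2 (-0.52), and TUB7 (0.66) beside the enolase gene ENOC (166.7 in wild type and 156.1 in axr4-2, -0.09).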
